A study of Mus musculus with 6 samples.

Results

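DNA replication and mitosis genes are the genes whose products copy the genome and then divide it between daughter cells. The set held 51 genes named in a fixed list, and its rule took each row of the deposited expression table whose annotation gave 1 gene symbol, that of a listed gene. Of the 51 genes 50 were measured, by 53 probe sets of 28815 in the table, among 19920 measured genes. Only Ccnb1, which encodes cyclin B1, had no row that the rule could take. By role, 17 of the measured genes act in DNA replication (8 in origin licensing, 5 in origin firing and at the fork, 4 in nucleotide supply), 6 regulate G1 and S phase, and 27 act in mitosis (7 in mitotic entry, 10 at the kinetochore, in the spindle checkpoint and at anaphase, 8 in the spindle and in cytokinesis, 2 on mitotic chromosomes).

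The study took the cervical spinal cord from mouse embryos at day 11.5 of development and set samples labelled Nkx2.9 knockout against samples labelled wild type, with 3 arrays a group, named knockout A, B and C and wild type A, B and C. The homeodomain protein made from Nkx2-9 acts in progenitors of the ventral cord, and the question was which genes it acts through as spinal accessory motor neurons form. The dissected tissue left out the dorsal cord and the floor plate in both groups, and its total RNA was amplified, labelled with biotin and hybridised to expression arrays. The sources used here do not give the strain, the design of the knockout allele, the sex of the embryos or whether a sample was 1 embryo or a pool, so p-values measure only the spread between these samples, which may be technical.

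In the embryonic cord, neural progenitors around the central canal pass through the cell cycle, and the neurons they give rise to leave it for good. Before S phase a ring of MCM proteins is loaded onto replication origins (licensing) and is then turned into the moving helicase by Cdc45 and the GINS complex (firing). In mitosis, cyclin-dependent, Polo-like and Aurora kinases drive entry, the spindle checkpoint holds the cell until each kinetochore is attached, and motor proteins and the contractile ring finish division.

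Many replication genes are read at the G1 to S transition through E2F sites, and many mitosis genes later in the cycle through an element called the cell cycle genes homology region (CHR), often beside CCAAT boxes. The promoters that follow show such letters in members described further on. For each class they are the 3 members with the class's word and the lowest p in the comparison of the arrays. Each is 200 bases, 150 before to 50 after the annotated start, from RefSeq on GRCm38.p6, a build not tied to the array's own annotation. Capitals mark the words searched on both strands. The E2F words were TTTGGCGC, TTTGCCGC, TTTCGCGC and TTTCCCGC, the CHR words TTTGAA and TTCGAA, and the CCAAT word was CCAAT. The replication genes are Mcm6 at chr1:128359656-128359855 (minus strand), Cdt1 at chr8:122567865-122568064 (plus strand) and Cdc6 at chr11:98908001-98908200 (plus strand). The mitosis genes are Kif23 at chr9:61946750-61946949 (minus strand), Plk1 at chr7:122159285-122159484 (plus strand) and Bub1b at chr2:118598061-118598260 (plus strand).
Mcm6: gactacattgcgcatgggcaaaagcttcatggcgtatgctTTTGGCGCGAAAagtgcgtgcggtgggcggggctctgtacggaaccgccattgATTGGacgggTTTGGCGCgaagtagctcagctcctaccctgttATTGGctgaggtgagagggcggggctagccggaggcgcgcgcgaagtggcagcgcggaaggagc
Cdt1: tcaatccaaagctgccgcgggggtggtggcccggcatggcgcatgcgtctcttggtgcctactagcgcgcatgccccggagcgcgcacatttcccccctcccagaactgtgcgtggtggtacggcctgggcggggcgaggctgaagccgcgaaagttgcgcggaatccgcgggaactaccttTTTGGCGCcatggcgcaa
Cdc6: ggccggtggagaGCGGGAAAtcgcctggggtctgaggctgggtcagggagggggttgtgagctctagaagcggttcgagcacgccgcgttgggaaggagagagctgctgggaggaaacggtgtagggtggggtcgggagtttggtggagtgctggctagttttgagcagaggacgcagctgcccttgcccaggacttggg
Kif23: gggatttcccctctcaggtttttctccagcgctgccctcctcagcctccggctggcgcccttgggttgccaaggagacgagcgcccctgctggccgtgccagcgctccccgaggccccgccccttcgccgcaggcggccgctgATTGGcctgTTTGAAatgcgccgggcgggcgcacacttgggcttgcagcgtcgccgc
Plk1: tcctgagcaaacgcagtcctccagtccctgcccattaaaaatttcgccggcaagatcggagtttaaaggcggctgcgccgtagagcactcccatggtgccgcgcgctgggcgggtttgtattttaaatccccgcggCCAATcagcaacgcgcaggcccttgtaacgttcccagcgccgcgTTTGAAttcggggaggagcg
Bub1b: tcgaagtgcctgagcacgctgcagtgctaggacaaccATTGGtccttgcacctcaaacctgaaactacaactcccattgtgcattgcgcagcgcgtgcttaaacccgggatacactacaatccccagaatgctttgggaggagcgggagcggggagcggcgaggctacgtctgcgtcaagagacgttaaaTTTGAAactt

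Mcm6, which encodes a subunit of the MCM ring, held 3 E2F words, of which those starting at -110 and -106 from the start site overlap in 1 stretch and the third starts at -47. The single E2F words of Cdt1 and Cdc6, whose products load the ring, start at 32 and -138. Kif23, a motor of the midzone of the spindle, had its CHR word at 2, with a CCAAT word at -7. Plk1, the Polo-like kinase, had them at 30 and -14. Bub1b, a checkpoint kinase gene, had them at 40 and -113, and a further CHR word at -188, before the stretch shown. Over the whole window of 300 bases (250 before the start), 40 measured members had a RefSeq promoter. E2F words stood in 6 of 14 replication promoters (42.9%), in 1 of 22 mitosis promoters (4.55%) and in 1 of 4 regulator promoters (25%), against 2.32% of the promoters of 27025 genes and 3.08% of the 15603 measured on these arrays. CHR words stood in 17 of 22 mitosis promoters (77.3%), in 3 of 14 replication promoters (21.4%) and in 0 of 4 regulator promoters, against 19.4% and 16.8%. Of the 26 CHR words in mitosis promoters 16 started within 50 bases of the start site. The CCAAT word stood in 71.4% of replication and 72.7% of mitosis promoters and in 1 of 4 regulator promoters (25%), against 37.9% and 38.2%. A word is a match of letters and not a measured binding site.

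The deposited values were log2 values whose rows were centred, so that the median of each complete row over the 6 arrays was 0 within 5e-07. Differences between arrays can be read from them, but levels, and so the presence of a gene or a cell type, cannot. The middle pair of arrays of each row lies symmetrically about 0 for the same reason. With limma over all 28815 probe sets, 0 passed an adjusted p under 0.05 (smallest 0.812; 1605 at an unadjusted p under 0.05), but 5 passed without knockout A. Nkx2-9 itself was at -0.071, 0.26 and 0.11 on knockout A, B and C, with -0.21, 0.071 and -0.11 on wild type A, B and C, a difference of 0.18 (SE 0.11, limma adjusted p = 0.812), so the knockout is named here only as a label. Whether its probes lie in the deleted part is not given in the sources used here. Xist, the RNA of the inactive X chromosome, was at 4.56 on knockout B, at 4.91 on knockout C and between -0.25 and 0.11 on the other 4 arrays.

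Replication and mitosis genes followed a common order of arrays. Their values were low on wild type B, slightly negative on knockout B and wild type A, near 0 on wild type C and high on knockout A and C. The median of the 50 members was 0.20, -0.093 and 0.26 on knockout A, B and C and -0.064, -0.53 and 0.045 on wild type A, B and C. In both groups this median was lowest on B and highest on C. The median over all complete probe sets lay between -0.0067 and 0.0090 on every array. Of the 50 members 48 had their lowest value on wild type B, which held for 17.9% of all probe sets, and the other two, Cdc6 and E2f1, had it on knockout B. The highest value was on knockout C for 34 members, on knockout A for 15 and on wild type C for E2f1. Of 28791 complete probe sets 7814 were highest on knockout C and 4297 on knockout A. Knockout A and C were both above every wild-type array for 45 members (14.8% of all probe sets). But knockout B was below wild type C for all 50 measured members (47.8% of all probe sets). It was below wild type A for 33 members and for 12458 of the 28791 complete probe sets. In bulk tissue, fewer cells of a type and less RNA per cell cannot be told apart.

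**Figure D1:**
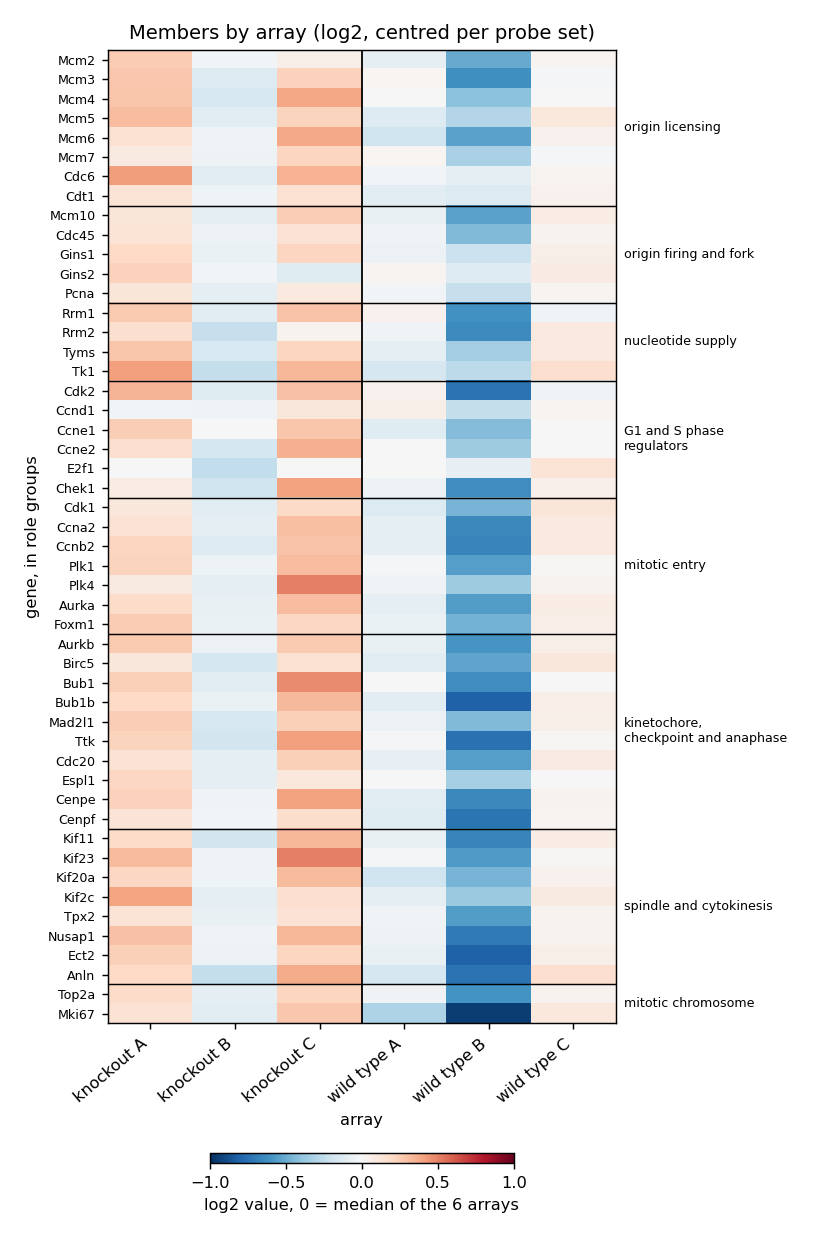
Log2 value of the 50 measured genes (rows, in role groups) on the 6 arrays (columns), each gene centred on its median over the arrays; red is above and blue below that median. The column of wild type B is blue throughout, and knockout A and C are mostly red.

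The group difference was positive for nearly every member, yet none passed the test. Knockout minus wild type was above 0 in 49 of 50 members, against 55% of all probe sets, with a median of 0.29 and a range from -0.099 for E2f1 to 0.49 (1.40-fold) for Mki67. With limma, 0 of 50 members passed the adjusted threshold (0% of all probe sets; adjusted p from 0.812 to 0.969). At an unadjusted p under 0.05, 2 members were higher, Ccne1 and Kif20a, against 3.07% of all probe sets. When single arrays were left out, that count was 0 without knockout A, knockout C, wild type A or wild type B (3.01%, 2.21%, 2.42% and 1.93% of all probe sets). It was 16 without knockout B and 15 without wild type C, against 4.78% and 3.5% of all probe sets. With the array letter as a replicate block, although the letters were not taken as pairs, it was 43 (4.51% of all probe sets), with 0 past the adjusted threshold. In 0 of 50 members did every array labelled knockout exceed every wild-type array, which 6.68% of all probe sets did. The SD over the 3 wild-type arrays was larger than the difference in 27 of 50 members and in 57.5% of all probe sets. The genes share the same 6 arrays, so their counts are not independent of each other.

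Origin licensing genes were all positive, from 0.15 to 0.39, with a median of 0.27. Mcm6 (probe set 10357436) was at 0.16, -0.042 and 0.38 on knockout A, B and C and -0.20, -0.54 and 0.042 on wild type A, B and C. Wild type B was the lowest array and wild type C lay between knockout B and knockout A, so the groups overlapped. Its difference of 0.39 (SE 0.17) had an adjusted p = 0.812 in limma, and was 0.24 without wild type B. Cdt1 (probe set 10576140), whose product brings the MCM ring to origins, was at 0.14, -0.045 and 0.15 on knockout A, B and C and -0.11, -0.13 and 0.045 on wild type A, B and C. For Cdt1, wild type A and B were nearly alike and only knockout A and C stood clear of the wild type, and the difference was 0.15 (SE 0.076, limma adjusted p = 0.812). The other MCM subunit genes differed by 0.28 (Mcm2), 0.33 (Mcm3), 0.31 (Mcm4), 0.25 (Mcm5) and 0.20 (Mcm7). Cdc6, which encodes the loader that works with Cdt1, had 0.25, and its value on wild type B was only -0.095 while knockout A and C were at 0.42 and 0.35.

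Origin firing and fork genes had the smallest median of the replication groups, 0.19. Cdc45 (probe set 10438378), a core part of the active helicase, was at 0.13, -0.059 and 0.15 on knockout A, B and C and -0.038, -0.45 and 0.038 on wild type A, B and C. Apart from wild type B at the low end, its arrays lay within -0.059 and 0.15, and its difference of 0.22 (SE 0.13, limma adjusted p = 0.812) was 0.074 without wild type B. Gins1 (probe set 10476989), a GINS subunit gene, was at 0.20, -0.065 and 0.21 on knockout A, B and C and -0.062, -0.21 and 0.062 on wild type A, B and C. Its lowest array was again wild type B, knockout B and wild type A were alike, and the difference was 0.19 (SE 0.10, limma adjusted p = 0.812). Mcm10, which helps to start the helicase, had 0.27, and Pcna, the sliding clamp of the polymerases, had 0.12 with a like value of 0.12 from its second probe set. Gins2, another GINS subunit gene, differed by 0.036 (SE 0.10) and turned to -0.026 without wild type B and to -0.065 without knockout A; knockout C, at -0.12, was among its low arrays.

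Nucleotide supply genes encode the enzymes that make DNA precursors, and their median difference was 0.24. Rrm1 (probe set 10555695), the large subunit of ribonucleotide reductase, was at 0.26, -0.12 and 0.29 on knockout A, B and C and 0.045, -0.61 and -0.045 on wild type A, B and C. Knockout A and C were the highest arrays and wild type B was far below the rest, with a difference of 0.35 (SE 0.20, limma adjusted p = 0.812) that was 0.14 without wild type B. Tyms (probe set 10528915), thymidylate synthase, was at 0.28, -0.15 and 0.22 on knockout A, B and C and -0.10, -0.35 and 0.10 on wild type A, B and C. Knockout B was below both wild type A and C, and the difference was 0.23 (SE 0.15, limma adjusted p = 0.812). Rrm2, the small subunit of the reductase, had 0.18 (SE 0.20) with all arrays and -0.041 without wild type B, where it stood at -0.64. Tk1, the thymidine kinase of the salvage route, had 0.26 from the probe set used and 0.11 from a second probe set, which was at -0.090 without wild type B.

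Regulators of G1 and S phase held both the member with the lowest p and the only negative member. Ccne1 (probe set 10562563), the cyclin E1 gene whose product activates Cdk2 at the start of S phase, was at 0.25, -0.0046 and 0.28 on knockout A, B and C and -0.12, -0.44 and 0.0046 on wild type A, B and C. Knockout A and C were above every other array, while knockout B was just below wild type C. The difference was 0.36 (SE 0.13, limma adjusted p = 0.812), and 0.23 without wild type B. Cdk2 (probe set 10373530), the kinase partner of cyclins E and A, was at 0.34, -0.12 and 0.29 on knockout A, B and C and 0.04, -0.74 and -0.04 on wild type A, B and C. Wild type B stood far below the other 5 arrays, and the difference was 0.42 (SE 0.23, limma adjusted p = 0.812) and 0.17 without that array. E2f1 (probe set 10488785), a transcription factor of S phase genes, was at 0.0033, -0.24 and -0.0026 on knockout A, B and C and 0.0026, -0.082 and 0.13 on wild type A, B and C. Its low array was knockout B, and it alone among the members was highest on wild type C, with a difference of -0.099 (SE 0.089, limma adjusted p = 0.848). Ccne2, encoding cyclin E2, had 0.23, and Chek1, the replication checkpoint kinase, had 0.30. Ccnd1, encoding cyclin D1, had 0.069 (SE 0.093), and -0.027 without wild type B.

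Mitotic entry genes differed by 0.22 to 0.34, with a median of 0.33. Plk1 (probe set 10557156), the Polo-like kinase of mitotic entry and spindle poles, was at 0.22, -0.054 and 0.31 on knockout A, B and C and -0.0086, -0.55 and 0.0086 on wild type A, B and C. Wild type A and C lay close to 0, and only wild type B was far from it among the wild-type arrays. The difference was 0.34 (SE 0.17, limma adjusted p = 0.812). Foxm1 (probe set 10542079), a transcription factor of mitosis genes, was at 0.26, -0.064 and 0.20 on knockout A, B and C and -0.065, -0.47 and 0.064 on wild type A, B and C. Knockout B and wild type A were alike, the groups overlapped, and the difference was 0.29 (SE 0.15, limma adjusted p = 0.812). The mitotic kinase Cdk1 had 0.22, and its partners cyclin A2 (Ccna2) and cyclin B2 (Ccnb2) had 0.33 and 0.34. Aurka, the kinase of spindle poles, had 0.33, and Plk4, the kinase of centriole duplication, had 0.28 with 0.50 on knockout C.

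Genes of the kinetochore, the spindle checkpoint and anaphase had a median of 0.36. Cenpe (probe set 10496204), a kinetochore motor that aligns chromosomes, was at 0.23, -0.034 and 0.40 on knockout A, B and C and -0.10, -0.65 and 0.034 on wild type A, B and C. Knockout B and wild type C mirrored each other about 0, and the difference of 0.44 (SE 0.20, limma adjusted p = 0.812) was 0.23 without wild type B. Aurkb (probe set 10377405), the kinase of the chromosomal passenger complex, was at 0.26, -0.056 and 0.26 on knockout A, B and C and -0.072, -0.59 and 0.056 on wild type A, B and C. Knockout A and C were nearly equal and stood above all other arrays, and the difference was 0.36 (SE 0.18, limma adjusted p = 0.812). Bub1b (probe set 10474769), the BubR1 checkpoint gene, was at 0.20, -0.063 and 0.33 on knockout A, B and C and -0.11, -0.80 and 0.063 on wild type A, B and C. Its value on wild type B was among the lowest of all members, and its difference of 0.44 (SE 0.23, limma adjusted p = 0.812) was 0.18 without that array. The checkpoint genes Bub1, Ttk and Mad2l1 had 0.40, 0.40 and 0.25. Birc5 (survivin, of the passenger complex) had 0.20, Cenpf (a kinetochore protein) 0.37, Cdc20 (which activates the anaphase-promoting complex) 0.28 and Espl1 (separase, which cuts cohesin) 0.19, the smallest of the mitosis genes.

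Spindle and cytokinesis genes had a median of 0.36. Kif20a (probe set 10454709), a motor of the spindle midzone, was at 0.20, -0.045 and 0.32 on knockout A, B and C and -0.20, -0.46 and 0.045 on wild type A, B and C. Knockout A and C were clear of the wild type, while wild type A and B were both low. The difference was 0.37 (SE 0.15, limma adjusted p = 0.812), and 0.24 without wild type B. Kif23 (probe set 10594251), the motor of the centralspindlin complex, was at 0.32, -0.04 and 0.50 on knockout A, B and C and -0.01, -0.56 and 0.01 on wild type A, B and C. Its wild type A and C were close to 0, and its difference of 0.45 (SE 0.20, limma adjusted p = 0.812) was 0.26 without wild type B, the highest such value among the members. Ect2 (probe set 10497520), which activates RhoA for the contractile ring, was at 0.24, -0.057 and 0.21 on knockout A, B and C and -0.071, -0.81 and 0.057 on wild type A, B and C. It had the second lowest member value on wild type B, and its difference went from 0.41 (SE 0.23, limma adjusted p = 0.812) to 0.14 without that array. The spindle motor Kif11 had 0.33, the microtubule depolymerase Kif2c 0.28, the spindle assembly factors Tpx2 and Nusap1 0.25 and 0.44, and the contractile ring scaffold anillin (Anln) 0.36.

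Both genes of mitotic chromosomes were highest on knockout C and lowest on wild type B. Top2a (probe set 10390707), topoisomerase II alpha, which untangles sister chromatids, was at 0.18, -0.089 and 0.22 on knockout A, B and C and -0.034, -0.59 and 0.034 on wild type A, B and C. Its wild type B alone was far from 0, and the difference was 0.30 (SE 0.18, limma adjusted p = 0.812), while a second Top2a probe set gave 0.069 and varied only from -0.083 to 0.062. Mki67 (probe set 10568714), the coat protein of mitotic chromosomes used as the Ki-67 proliferation marker, was at 0.14, -0.11 and 0.27 on knockout A, B and C and -0.30, -0.95 and 0.11 on wild type A, B and C. It had both the lowest member value on any array and the largest difference, 0.49 (SE 0.26, limma adjusted p = 0.812), and wild type A was also among its low arrays. Without wild type B the difference of Mki67 was 0.20.

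Set against each other, mitosis genes had the larger median difference and replication genes the smaller, and without wild type B the medians lay close together. The median difference was 0.25 over the 17 replication genes and 0.34 over the 27 mitosis genes, against 0.0087 over all complete probe sets. The replication median was 0.23, -0.095 and 0.22 on knockout A, B and C and -0.038, -0.35 and 0.042 on wild type A, B and C. The mitosis median was 0.20, -0.089 and 0.28 on knockout A, B and C and -0.073, -0.59 and 0.057 on wild type A, B and C. On every array but wild type B the class medians lay within -0.066 and 0.035 of each other, and on wild type B, where the mitosis median was the lower, replication minus mitosis was 0.24. Averaged by group, the replication median was 0.12 ± 0.18 (SD, n = 3) in the arrays labelled knockout and -0.12 ± 0.21 (SD, n = 3) in the wild type. The mitosis median was 0.13 ± 0.20 (SD, n = 3) and -0.20 ± 0.34 (SD, n = 3). Pooled over the groups, the SD of the array medians was 0.20 for replication and 0.28 for mitosis genes. These SDs were smaller than the median differences of 0.25 and 0.34, but of similar size. In the wild type alone, the SD of the mitosis median was as large as the mitosis difference, at 0.34. Replication minus mitosis of the median differences was -0.097 over all arrays, -0.024 without wild type B, -0.15 without knockout A and also -0.15 without wild type C. No test was made of the classes, whose members were chosen with results known.

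**Figure D2:**
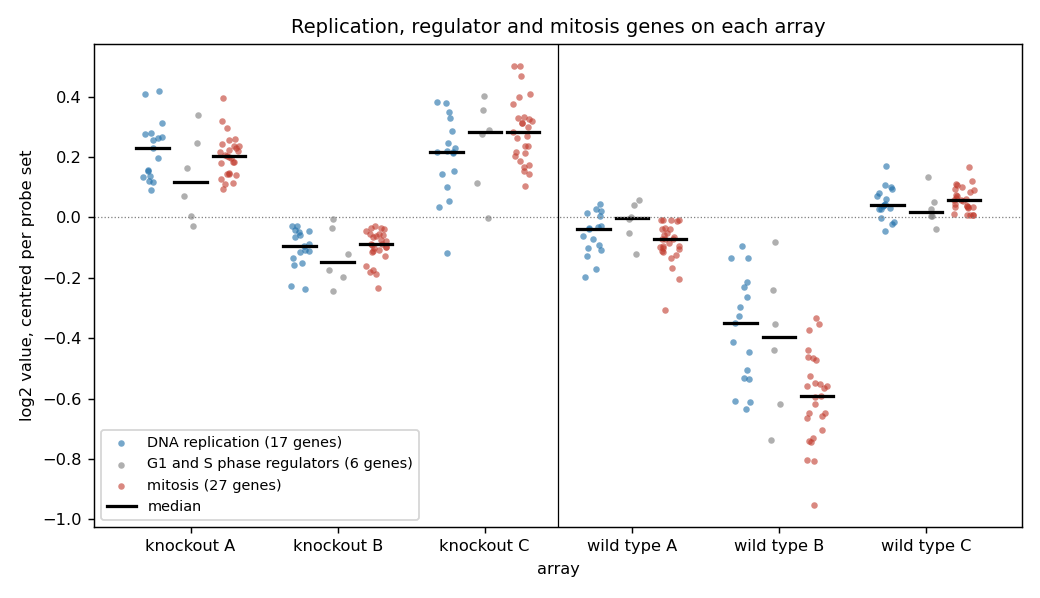
Log2 value of each replication (blue, 17), regulator (grey, 6) and mitosis gene (red, 27) on each array, with the class median as a bar. The classes overlap on every array but separate most on wild type B, with medians of -0.35 for replication and -0.59 for mitosis genes.

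Leaving out wild type B lowered the differences of both classes. This was fixed by the arithmetic, since wild type B lay below the mean of wild type A and C in every member. The replication median went from 0.25 to 0.11 and the mitosis median from 0.34 to 0.14, while all complete probe sets stayed at 0.010. The replication median was also 0.16 without knockout A. With wild type B left out, 46 of 50 members were still above 0, against 55.3% of all probe sets. All 27 mitosis genes were among them, from 0.03 for Birc5 to 0.26 for Kif23. The members below 0 were Gins2 (-0.026), Rrm2 (-0.041), Ccnd1 (-0.027) and E2f1 (-0.15). In limma without wild type B, 0 members passed the adjusted threshold (0% of all probe sets; smallest adjusted p 0.996), and 0 were higher at an unadjusted p under 0.05, against 1.93% of all probe sets. Every array labelled knockout was above wild type A and C in 0 of 50 members, against 11% of all probe sets, since knockout B was below wild type C in each.

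**Figure D3:**
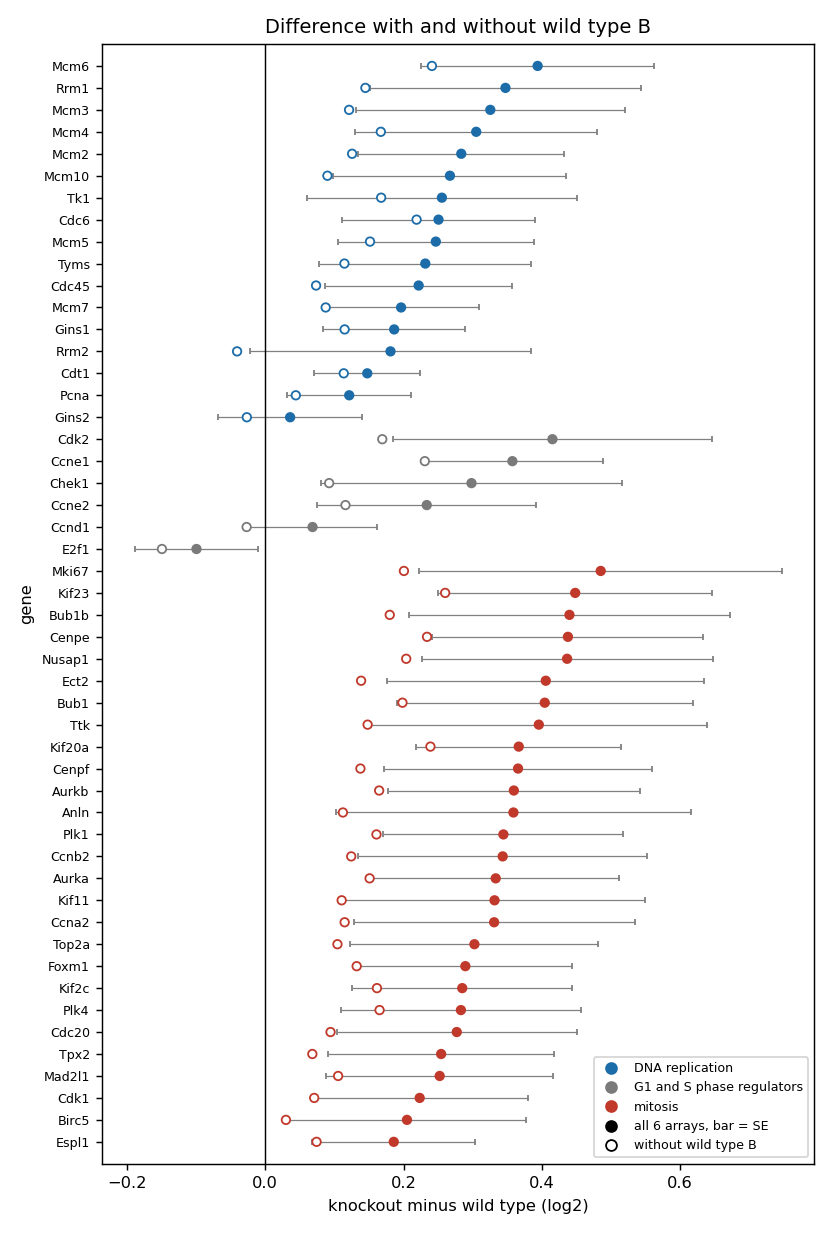
Knockout minus wild type (log2) of the 50 genes over all 6 arrays (filled points, bars are the SE of the limma fit) and without wild type B (open points). Open points lie left of filled points for every gene, by most for Mki67, Ect2 and Bub1b. This follows from wild type B being below the mean of wild type A and C for every gene.

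Wild type B differed from the other wild-type arrays in every role group, by more in mitosis than in replication genes. Wild type B minus the mean of wild type A and C had a median of -0.35 over replication genes (from -0.67 for Rrm2 to -0.095 for Cdc6) and -0.58 over mitosis genes (from -0.85 for Mki67 to -0.33 for Espl1), against 0.0054 over all complete probe sets. Of the 50 members 46 were in the lowest 5% of all probe sets by this value, and the members' median percentile was 0.81. By role the medians were -0.37 for licensing, -0.23 for firing and fork and -0.48 for nucleotide supply. They were -0.55 for mitotic entry, -0.60 for kinetochore and checkpoint, -0.61 for spindle and cytokinesis and -0.72 for mitotic chromosomes. Within replication, Cdc6 and Cdt1, the loaders of the MCM ring, were at -0.095 and -0.10. The genes of the ring itself ran from -0.61 for Mcm3 to -0.29 for Mcm5. Small drops were not limited to the loaders, as Gins2, Gins1 and Pcna were at -0.19, -0.21 and -0.23. With a single array there is no replicate of this difference.

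**Figure D4:**
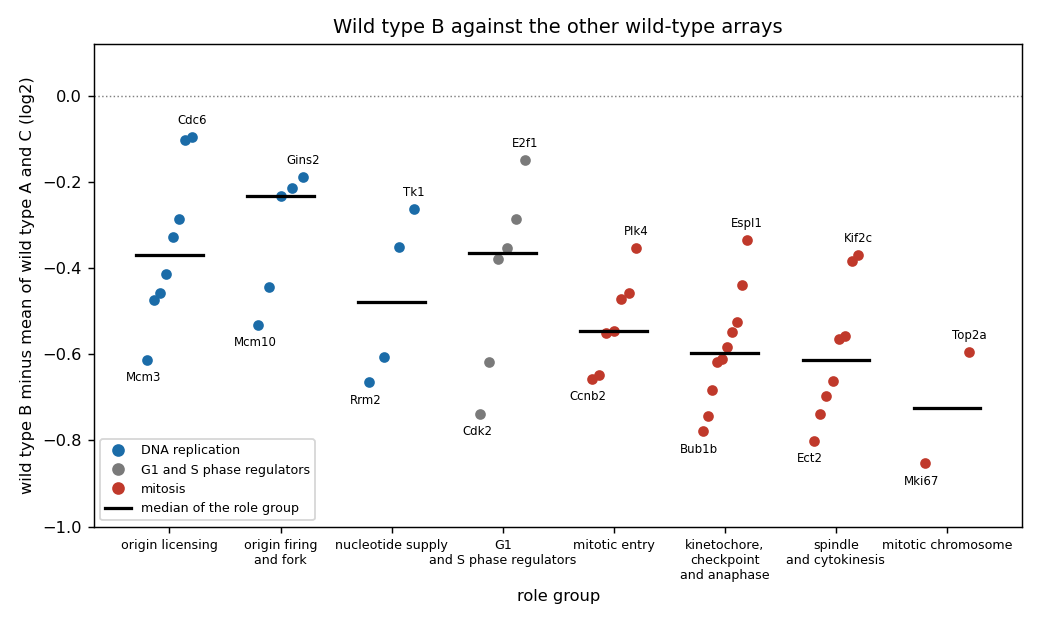
Wild type B minus the mean of wild type A and C (log2) for each gene, by role group, with the median as a bar; the genes at each end of a group are named. Medians run from -0.23 for origin firing and fork to -0.72 for mitotic chromosomes, and every gene lies below 0.

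Set beside the promoter words shown above, the 17 mitosis genes with a CHR word had a median of -0.62 on this measure and the 5 without it -0.53 (from -0.70 to -0.35). The 6 replication genes with an E2F word had -0.31 and the 8 without it -0.46, with ranges from -0.61 to -0.095 and from -0.67 to -0.23. Genes with and without a word overlapped in both classes. Mcm3, with E2F words at 19 and 38, was at -0.61, and Cdc6, with its word at -138, at -0.095. Bub1b, with CHR words at -188 and 40, was at -0.78.

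Knockout B was low among the arrays labelled knockout, and here the classes did not part. Knockout B minus the mean of knockout A and C had a median of -0.31 over replication genes and -0.32 over mitosis genes, against 0.0027 over all complete probe sets. All 50 members were below 0 on this measure, from -0.60 for Tk1 to -0.078 for Ccnd1. Without knockout B the median difference between the groups was 0.36 for replication and 0.45 for mitosis genes.

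Further genes of the same pathways, from lists drawn up beside the members, had medians in the same order of arrays as the members. Of 44 other replication genes 42 were above 0 (55% of all probe sets), with a median difference of 0.19 (0.078 without wild type B). Of the 44, 39 were lowest on wild type B (17.9% of all probe sets). In limma 0 passed after adjustment and 5 were higher at an unadjusted p under 0.05, against 3.07% of all probe sets. The lowest p was that of Pold2, a subunit of DNA polymerase delta, at 0.12, 0.073 and 0.13 on knockout A, B and C and -0.073, -0.22 and -0.10 on wild type A, B and C. For Pold2 every array labelled knockout was above every wild-type array, with a difference of 0.24 (SE 0.053, limma adjusted p = 0.812). Orc1, of the origin recognition complex, had 0.49, Gins3 0.34 and Dbf4, which activates the Cdc7 kinase, 0.32. Of 60 other mitosis genes 59 were above 0 (55% of all probe sets) and all 60 were lowest on wild type B (17.9%). Their median was 0.28 (0.11 without wild type B). In limma 0 of these passed and 2 were higher at an unadjusted p under 0.05, near the 3.07% of all probe sets. They were Troap at 0.25 and Dlgap5, a spindle protein, at 0.42. Pttg1 (securin, which holds separase) had 0.18 and Ckap5, a microtubule polymerase, 0.10.

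Of 19 cell cycle inhibitors and exit genes, which hold back or end the cycle, 11 were above 0 (55% of all probe sets). On wild type B 7 were lowest (17.9% of all probe sets). Their median was 0.034 and, without wild type B, -0.021. In limma 0 passed after adjustment and E2f5, a repressive E2F, alone had an unadjusted p under 0.05, with 0.26 (SE 0.077). Of all probe sets 3.07% were higher at that p. Rbl1, of the retinoblastoma family, was at 0.30, -0.019 and 0.44 on knockout A, B and C and -0.039, -0.61 and 0.019 on wild type A, B and C. Its lowest array was wild type B and knockout B lay below wild type C, with a difference of 0.45. Btg2, an antiproliferative gene, had 0.18 and Cdkn2d, an inhibitor of Cdk4 and Cdk6, -0.19. Of 18 other G1 and E2F genes 15 were above 0 (55% of all probe sets), with a median of 0.12. In limma 0 of these passed and 3 were higher at an unadjusted p under 0.05, against 3.07% of all probe sets. They were Lin54 at 0.33 (SE 0.078), E2f7 at 0.21 and Wee1, the inhibitory kinase of Cdk1, at 0.37. Lin54, the MuvB subunit that binds the CHR, was at 0.15, 0.081 and 0.35 on knockout A, B and C and -0.17, -0.16 and -0.081 on wild type A, B and C. Its arrays did not overlap between the groups. Ccnd2, cyclin D2, had 0.36.

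**Figure D5:**
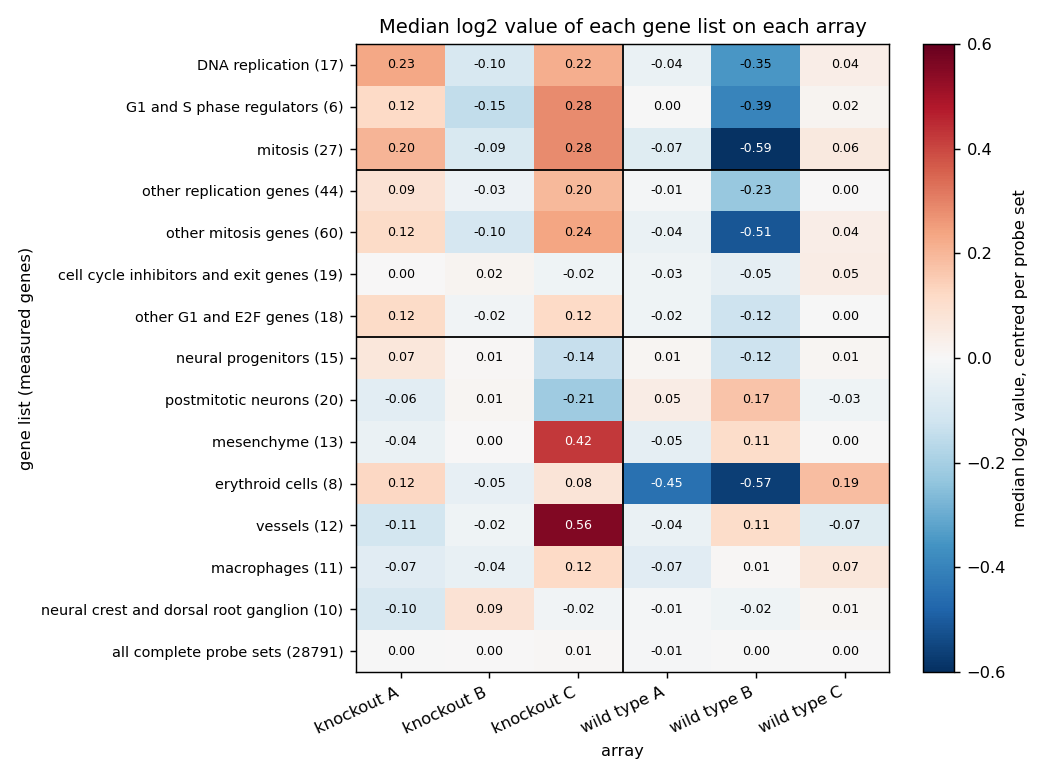
Median log2 value of each gene list (rows, number of measured genes in brackets) on each array (columns), with values centred per probe set. The replication and mitosis lists are lowest on wild type B, inhibitors and exit genes lie between -0.05 and 0.05, and mesenchyme and vessel markers are high on knockout C.

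Markers of the cell types that the dissected cord could hold also differed between arrays. The 20 markers of postmitotic neurons had medians of -0.061, 0.012 and -0.21 on knockout A, B and C and 0.045, 0.17 and -0.025 on wild type A, B and C. They were highest on wild type B for 16 (18% of all probe sets) and lowest on knockout C for 15 (18.5%). The difference was below 0 in 18 of 20 (45% of all probe sets), such as Elavl3 at -0.13 and Syt1 at -0.44. In limma 0 passed after adjustment, and 3 were lower at an unadjusted p under 0.05, against 2.5% of all probe sets. The 15 markers of neural progenitors had medians of 0.068, 0.0092 and -0.14 on knockout A, B and C and 0.0135, -0.12 and 0.012 on wild type A, B and C. Of the 15, 7 were lowest on wild type B (17.9% of all probe sets) and 6 on knockout C (18.5%). Their difference was above 0 in 8 (55% of all probe sets) and below 0 in 7. On wild type B Prom1 was at -0.50 and Notch1 at -0.40, but markers of this list went both ways there. Wild type B minus the mean of wild type A and C ran from -0.44 to 0.19 over the 15, with a median of -0.12. The 13 mesenchyme and 12 vessel markers had medians of 0.42 and 0.56 on knockout C, both 0.11 on wild type B and from -0.11 to 0.0014 on the other arrays. The 8 erythroid markers had medians of 0.12, -0.05 and 0.075 on knockout A, B and C and -0.45, -0.57 and 0.19 on wild type A, B and C. The 11 macrophage and the 10 neural crest and dorsal root ganglion markers had medians between -0.097 and 0.12 on every array. On wild type B the neuronal median was thus high and the erythroid and progenitor medians low. On knockout C the mesenchyme and vessel medians were high and the neuronal and progenitor medians low. The median of all members was lowest on wild type B and highest on knockout C, but the replication median was highest on knockout A, at 0.23. Progenitor markers were low on both of these arrays. Erythroid markers were also low on wild type A, at -0.45, where the member median was only -0.064. The part of these cell types in the results was not tested.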

How the data were processed

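RNA of 6 samples was measured on 6 expression arrays. The deposited values are log2 values from RMA, which the authors ran, per the submitters' processing notes. RMA corrects the background, normalizes between arrays and summarises probes. The RMA settings are not given in the sources used here. No base is stated for the logarithm, and base 2 was assumed, as RMA gives it. Rows had then been centred on their medians, so no filter on low values could be applied, and signal over background could not be seen. Of the 28815 probe sets 24 lacked a value on 1 array and were fitted on the others. In the platform's annotation 21780 had 1 symbol, 1605 several and 5430 none, and 21689 matched the RefSeq table by Entrez identifier, with 0 symbols changed. Each gene was read from its complete probe set with the most accessions, ties going to the lowest identifier.

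Samples were grouped by their titles. Knockout minus wild type was fitted over all probe sets with lmFit and eBayes of limma 3.58.1 (R 4.3.3), with Benjamini-Hochberg adjustment and a threshold of 0.05, and SEs are those of the moderated fit. The fit was tested on simulated data. The number of arrays limits the precision. Class medians, counts over arrays and promoter words were computed in Python 3.11.15 with pandas 2.3.3, and figures were drawn with matplotlib 3.10.9. The members and all lists were chosen with earlier results of these data known. Values on every array were given for the 2 members of lowest p in each role group, members at or below 0, the 3 of largest difference and the 3 that moved most without wild type B. Up to 4 genes of lowest p were named in each pathway list and up to 2 in each marker list. Listed genes without a row of 1 symbol were not analysed here.

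As alternatives, single arrays were left out, the letter was used as a replicate block, and arrays were quantile normalized, centred or weighted. A term was added for the 2 arrays where Xist was high, all probe sets of a gene were averaged, and class borders were moved. Both arrays with high Xist were labelled knockout, so with that term the group difference was knockout A minus the mean of the wild-type arrays.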

Additional observations from a re-analysis of the deposited data

How the results depend on the processing

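Over the alternatives run (leaving out each array, quantile normalization, array medians set to 0, array weights, a term for arrays with high Xist, the mean over probe sets and the replicate block), 0 members passed the adjusted threshold in limma, and 46 to 49 of 50 stayed above 0. The lowest adjusted p of a member was 0.339, without knockout B. The number of members higher at an unadjusted p under 0.05 was 2 with all arrays, 1 with the Xist term and from 0 to 16 when single arrays were left out. The number of probe sets past the adjusted threshold ran from 0 to 5 when single arrays were left out. The differences of 3 members changed sign in this way, where Gins2 ran from -0.065 to 0.11, Rrm2 from -0.041 to 0.33 and Ccnd1 from -0.027 to 0.12. Without wild type B, 3 members changed sign and 45 others moved by over 1.5 times. Without knockout B 12 moved so. With the Xist term, which left only knockout A to set against the wild type, 13 moved so. Quantile normalization and array centring turned no sign, but quantile normalization moved 6 members so, while centring moved 0. With quantile normalization the replication median was 0.19 and the mitosis median 0.25. Over all alternatives the replication median ran from 0.11 to 0.39 (the latter with the Xist term) and the mitosis median from 0.14 to 0.49. Replication minus mitosis ran from -0.15 to -0.024. Joining the regulators to the replication genes left its median at 0.25, and taking Ccna2, Plk4, Top2a and Mki67 out of the mitosis genes left theirs at 0.34.

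The letters A, B and C stand in both groups. The median of the 50 members rose from B to A to C in both. It was -0.093, 0.20 and 0.26 on knockout B, A and C and -0.53, -0.064 and 0.045 on wild type B, A and C. For each letter the knockout median was above the wild-type median. Whether this shared order comes from pairing was not tested. Same-letter arrays had deviations from their group means that correlated by 0.165 (A), 0.216 (B) and 0.016 (C) over probe sets. The A and B arrays each correlated best with their own letter, but knockout C and wild type C did not. The letters were therefore not taken as pairs, which does not show that the samples were unpaired. With the letter as a replicate block, 43 of 50 members were higher at an unadjusted p under 0.05 (4.51% of all probe sets) and 0 passed after adjustment (lowest adjusted p of a member 0.415).

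Levels, signal over background and the cell makeup of each sample cannot be read from centred values. No other wild-type array repeats the low values of wild type B. Knockout B was also below the mean of knockout A and C in every member, by a smaller median of -0.32 against -0.53 for wild type B.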

Other observations

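Among genes of the pathways that are no members, some did separate the groups on every array. Every array labelled knockout was above every wild-type array in 8 of 44 other replication genes and 5 of 60 other mitosis genes. The same held for 3 of 18 other G1 and E2F genes and 1 of 19 inhibitors and exit genes. It held for 6.68% of all probe sets and for 0 of 50 members. In the mitosis and the inhibitor lists the count was thus near the share of all probe sets. The genes were picked out after their values were seen. Besides Pold2, Orc1 and Gins3 the replication genes were Orc5 and Orc6 of the origin recognition complex, Gmnn (geminin, the inhibitor of Cdt1) and Chaf1a and Chaf1b, subunits of the chromatin assembly factor that follows the fork. Gmnn was at 0.13, 0.0022 and 0.47 on knockout A, B and C, with -0.0075, -0.32 and -0.0022 on wild type A, B and C, so knockout B and wild type C were nearly equal. Orc5 was at 0.053, 0.034 and 0.35 against -0.034, -0.047 and -0.064, and its difference of 0.19 (SE 0.089) was also 0.19 without wild type B. In limma 0 of these genes passed after adjustment (adjusted p from 0.812 to 0.820).

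Within the neural progenitor list, Prom1 and Notch1 were lowest on wild type B, and Fabp7, a radial glial gene picked out after its values were seen, was highest there. Prom1 was at 0.21, 0.021 and 0.23 on knockout A, B and C, with -0.021, -0.50 and -0.093 on wild type A, B and C, so its arrays did not overlap between the groups. Such a separation with the knockout above held for 3 of 15 progenitor markers (6.68% of all probe sets). The reverse held for 1, Fabp7 (1224 of 28791 complete probe sets). Fabp7 was at -0.022, -0.012 and -0.14 against 0.013, 0.082 and 0.012, with a difference of -0.094 (SE 0.052, limma adjusted p = 0.812).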
